A study of Xenopus laevis with 30 samples.

Results

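Genes of the nuclear pore, of nuclear transport and of the nuclear lamina were followed through the development of the clawed frog Xenopus laevis. They were chosen by gene name alone: nucleoporins (nup with a number), importins and exportins (kpna, kpnb, ipo, tnpo and xpo), Ran and its regulators (ran, ranbp, rangap and rcc1), lamins, and the single genes lbr, ndc1, aaas, seh1l and tpr. The oocyte-type importin kpna7 and lamin lmnb3 were left out by the rule. The choice gave 102 probe sets of 32539 on the array, for 69 symbols and 50 genes once the L and S copies of this allotetraploid frog were joined. Of these 102, 89 probe sets of 48 genes were bright enough to be tested, and 13 were dim at all stages. Among the dim ones were the only probe sets for lmna and for nup160. Total RNA of wild-type whole embryos of mixed sex was hybridised to 30 Affymetrix arrays, 2 for each of 15 Nieuwkoop-Faber stages. Stages 2, 5 and 9 lie in cleavage and the blastula, stage 11 in the gastrula, and stages 13, 17 and 19 in the neurula. Stages 21, 23, 26, 28 and 31 are tailbud embryos, stage 37-38 lies near hatching, and stages 43 and 48 are tadpoles. The embryos carried no mutation or treatment, and each array had the RNA of several embryos in a pool.

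The nuclear pore is a large protein ring through the nuclear envelope. The Y complex forms its outer rings, an inner ring lines the membrane, and nucleoporins with phenylalanine-glycine repeats fill the central channel. Filaments on the cytoplasmic face and a basket on the nuclear face dock cargo. Importins carry cargo in and exportins carry it out. Direction comes from Ran: RCC1 on chromatin loads Ran with GTP inside the nucleus, and RanGAP1, with RanBP1 and RanBP2, has it hydrolysed in the cytoplasm. Lamins form the meshwork under the inner membrane. Frog eggs store pore, import and lamina proteins for the rapid cleavage cycles, so a transcript level here is not a protein level.

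Signals are in arbitrary MAS5 units and 2 arrays per stage limit the precision. Log2 signals of the arrays of a stage correlated at 0.974 to 0.985, and 30 of 30 arrays lay nearest to the other array of their own stage. A fold is written as "at least N-fold" where the dimmer stage lies under the median signal of its arrays, which was 107 units at stage 2 and 183 at stage 48. Marker lists went with the stage labels. The summed signal of 8 maternal probe sets was 252.5 to 258.3 units at stage 48, against 72057 to 77230 at stage 2, and that of 10 gastrula probe sets was 38390 to 39551 at stage 11, against 120.5 to 141.1 at stage 5. All changes are relative to the total signal of an array. The added poly-A control RNA, of which 12 probe sets were measured, fell in signal to 188 units at stage 48, against 574 at stage 2. Scaling to it shifts the log2 change of every probe set by 0.11 for stage 5 over 2, -0.29 for stage 11 over 5, 0.80 for stage 21 over 11, 0.60 for stage 31 over 21, 0.38 for stage 48 over 31 and 1.61 for stage 48 over 2. Counts under this scaling are therefore given beside the main ones. This scaling could also lower the precision. For nup88.L at stage 5 over stage 2 the change grew to 0.53 from 0.41, but limma's adjusted p went to 0.0188 from 0.000161. A call lost under poly-A scaling can thus come from lower precision as well as from a smaller change. The 9 hybridisation control probe sets had 2868 units at stage 2 and 2827 at stage 48. They had 2230 units at stage 5 and 3567 at stage 11, where the poly-A control went from 530 to 649. What moved the controls was not tested. In whole embryos, fewer cells that express a gene and less of its RNA per cell cannot be told apart.

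Over the whole course, 89 of 89 member probe sets changed by limma's F test at an adjusted p under 0.05, a share that was 99.8% among all 23403 tested probe sets. The median distance between a member's highest and lowest stage was 2.46 on the log2 scale, against 3.09 for all tested probe sets. Member probe sets mostly peaked early: 71 of 89 (79.8%) were highest at or before stage 13, against 49.8% of all tested probe sets. Some genes have several probe sets, which are counted singly here. Stage 2 was the highest stage for 27 member probe sets. Stage 48 was the lowest stage for 61 (68.5%), against 22.1% of all tested probe sets. Under poly-A scaling these shares were lower for both, with 34 members (38.2%) highest by stage 13 and 30 (33.7%) lowest at stage 48, against 22.6% and 6.80% of all tested probe sets.

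**Figure D1:**
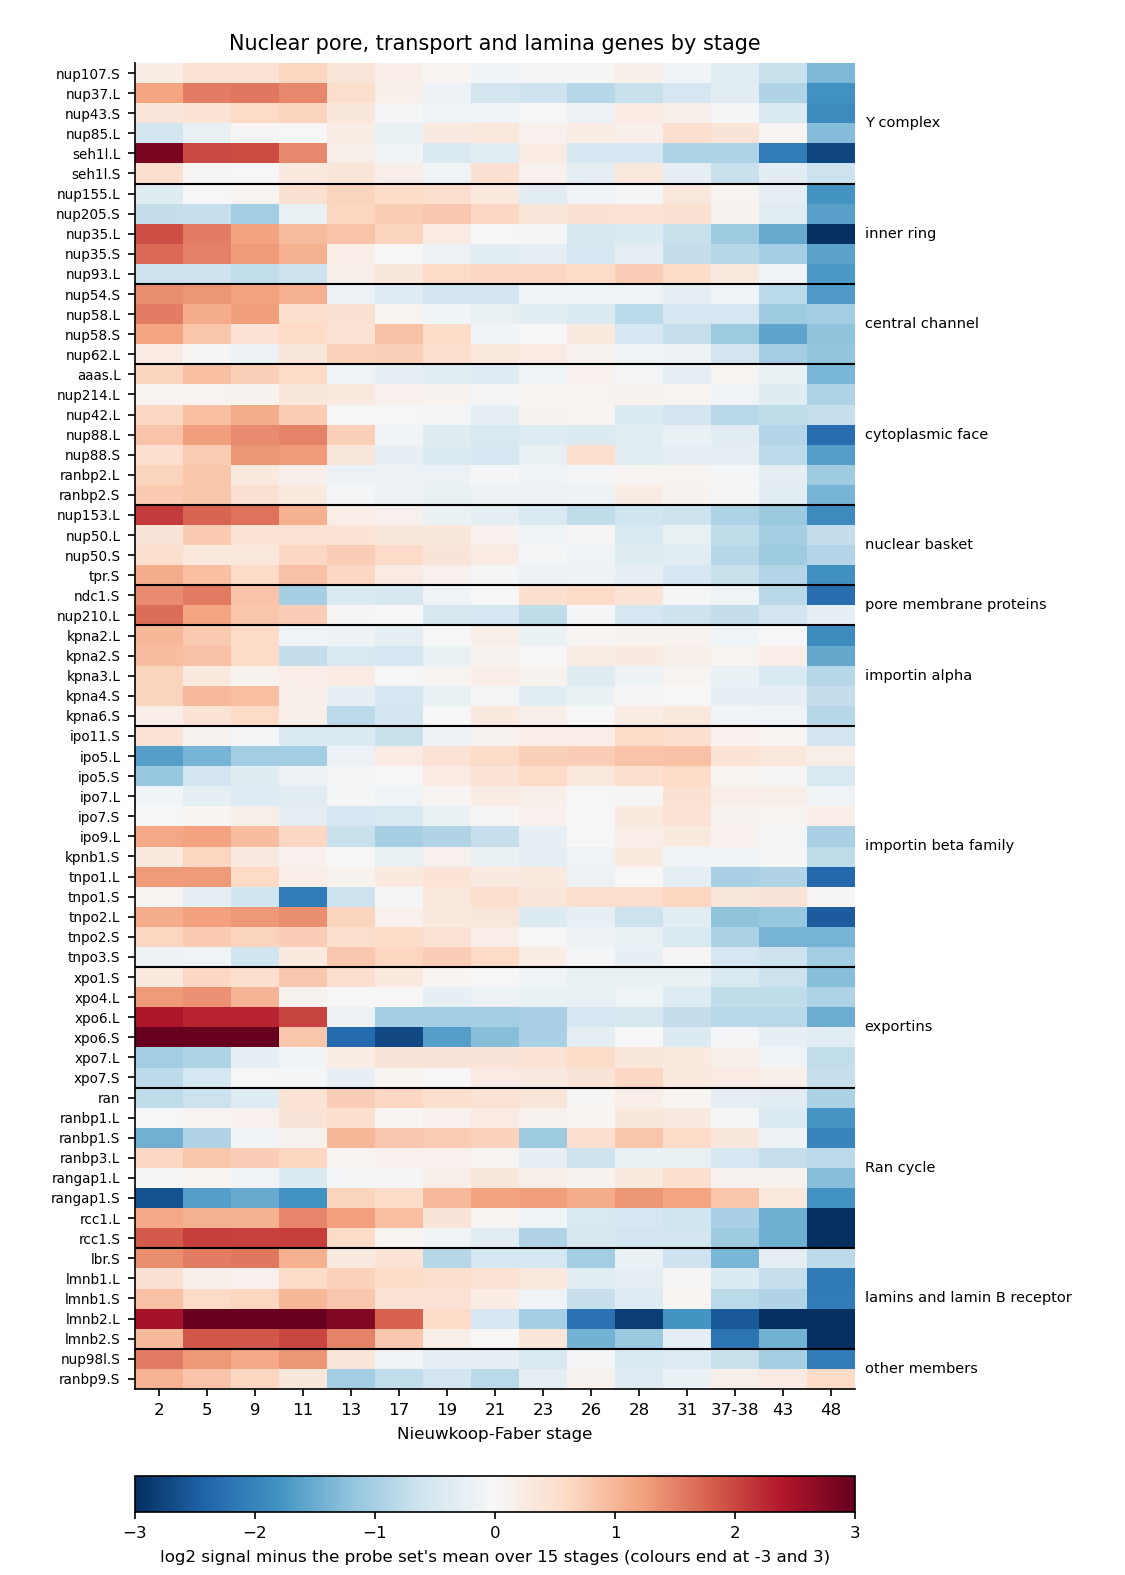
Log2 signal of 66 symbols (rows, grouped by role) at 15 Nieuwkoop-Faber stages (columns), each as the difference from the symbol's mean over the stages, with the brightest probe set per symbol and the mean of 2 arrays. Most rows are red on the left and blue at stage 48, while ipo5.L, rangap1.S and nup93.L are blue on the left and red from stage 17 to stage 31, and rangap1.S and nup93.L are blue again at stage 48.

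Relative to stage 2, the members' median log2 signal was 0.04 at stage 5, -0.09 at stage 11, -0.44 at stage 13, -0.72 at stage 21, -0.78 at stage 31, -0.90 at stage 37-38, -1.15 at stage 43 and -1.97 at stage 48. The median of all tested probe sets stayed between -0.09 and 0.13 over the same stages. In the last step, 73 of 89 members had both arrays of stage 48 below both arrays of stage 43, where 41% of all tested probe sets did. The steps between neighbouring stages were looked at after the data were seen.

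During cleavage, at stage 5 over stage 2, 18 members rose and 16 fell, against 18.3% of all tested probe sets rising and 13.7% falling. Under poly-A scaling 8 rose and 1 fell (13.6% and 4.32% of all). At least 2-fold in fitted values, 1 member rose (4.2% of all) and 0 fell (2.96% of all). That 1 was a dim lmnb1.S probe set, which had 134 and 149 units at stage 5, against 12.6 and 19.7 at stage 2. Its stage 2 lay under the array median, so the rise was at least 1.32-fold. The bright lmnb1.S probe set changed by -0.31 in this interval and was not called (adjusted p 0.111). From cleavage to gastrula, at stage 11 over stage 5, 26 members rose and 36 fell (33% and 34% of all), or 5 and 44 under poly-A scaling (20.8% and 39.7% of all). At least 2-fold changes were 3 rises and 10 falls (17.8% each of all). From gastrula to the first tailbud stage sampled, at stage 21 over stage 11, 24 rose and 49 fell (39.7% and 39.9% of all), or 46 and 18 under poly-A scaling (57.2% and 17% of all). At least 2-fold changes were 8 rises and 22 falls (26.9% and 23.6% of all). In the tailbud interval, stage 31 over stage 21, 17 rose and 28 fell (26.9% and 25.4% of all), or 52 and 0 under poly-A scaling (53.4% and 3.73% of all). With each array centred on its median the counts were 6 and 47 (19.4% and 37.7% of all). At least 2-fold changes were 0 rises and 1 fall (11.8% and 5.28% of all).

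In the tadpole interval, at stage 48 over stage 31, 2 members rose and 80 of 89 fell (89.9%), against 29.7% and 39.7% of all tested probe sets. Some of the 80 had both stages under the array median, so that the size of their fall is uncertain, and examples are named under their roles. The median change was -1.29 for members and -0.13 for all. At least 2-fold falls were 62 among members, where 20.2% of all tested probe sets fell that far, and 0 members rose that much (16.3% of all). Under poly-A scaling 67 members fell and 5 rose (23.8% and 37.8% of all), and with median centring 83 fell and 2 rose (44.5% and 25.1% of all). With 1 probe set for each of the 66 tested symbols, 59 fell and 1 rose. Over the whole span, stage 48 over stage 2, 6 members rose and 77 fell (44.7% and 45.7% of all), 66 of them at least 2-fold (34.3% of all). Among the rises 1 was at least 2-fold (36.6% of all). Under poly-A scaling, where all tested probe sets shift up by 1.61, this became 28 rises and 41 falls (68.1% and 17.3% of all). On the deposited scale with 1 probe set per symbol, 58 of 66 fell and 5 rose.

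**Figure D2:**
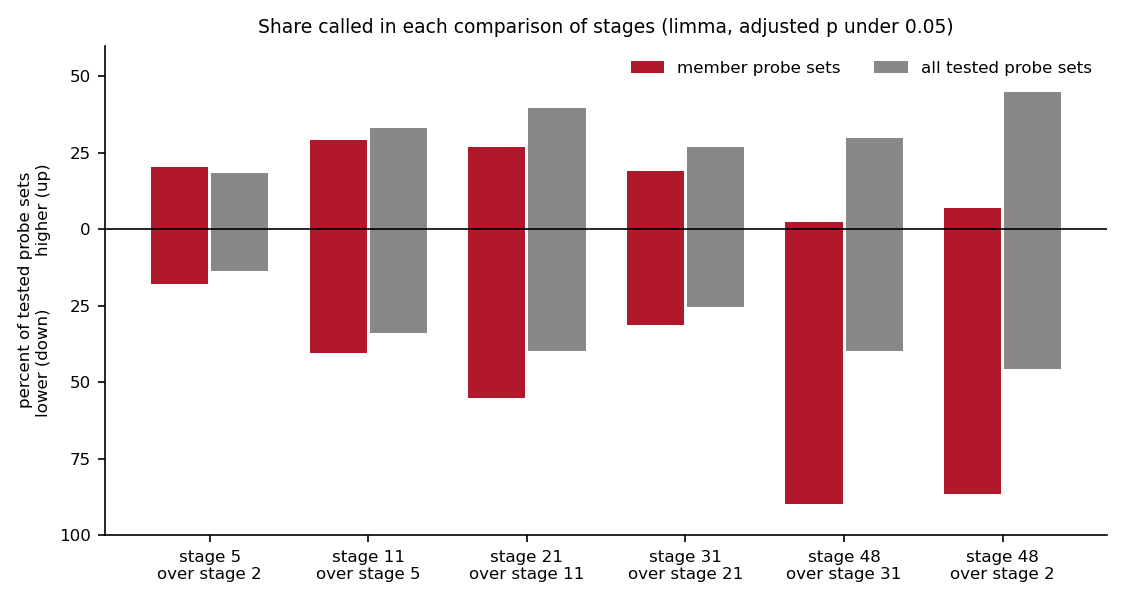
Percent of tested probe sets called higher (bars up) or lower (bars down) in each comparison of stages, for 89 member probe sets (red, left) and all 23403 tested probe sets (grey, right), on the deposited scale. The members' bar at stage 48 over stage 31 reaches 89.9% lower, against 39.7% for all.

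Marker lists of other kinds were looked at in the same tadpole interval, in which 39.7% of all tested probe sets fell and 29.7% rose (23.8% and 37.8% under poly-A scaling). Of 7 probe sets of proliferation genes, 6 fell (6 under poly-A scaling) with a median change of -1.98. The summed signal of the 7 was 6706 to 7285 units at stage 48, against 23355 to 23563 at stage 31. The 4 blood probe sets all rose (4 under poly-A scaling), to a sum of 41132 to 44380 units at stage 48, against 3588 to 5811 at stage 31. Of 13 muscle probe sets 3 rose (23.1%, a share under that of all tested probe sets), 0 of them at least 2-fold, and 4 rose under poly-A scaling. The muscle sum was 254675 to 266994 units at stage 48, against 176649 to 184576 at stage 31. No marker value was at 0 on any array. The part of these lists in the members' fall was not tested.

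The Y complex, the outer ring scaffold that also seeds pores on chromatin, had 6 tested probe sets. Between the tadpole and the tailbud embryo, at stage 48 over stage 31, 5 fell (5 under poly-A scaling) with a median of -1.54, and at stage 48 over stage 2 all 6 fell (3 fell and 1 rose under poly-A scaling). Beside this and each other role, 39.7% of all tested probe sets fell and 29.7% rose at stage 48 over stage 31 (23.8% and 37.8% under poly-A scaling). At stage 48 over stage 2, 45.7% of all fell and 44.7% rose (17.3% and 68.1% under poly-A scaling). nup43.S, a small propeller subunit, had 459 and 478 units at stage 48, against 1906 and 1902 at stage 31. Its arrays did not overlap, and the change was -2.02 ± 0.06 (SE, adjusted p 1.56e-16). Its stage means had been between 1280 and 2733 units at the earlier stages. nup37.L, another propeller subunit, had 270 and 273 units at stage 21, against 1121 and 1037 at stage 11, a 3.97-fold fall. nup85.L ran differently from these and was highest at stage 31 with 1451 units.

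The seh1l copies, which encode a Y complex subunit shared with a nutrient-sensing complex at the lysosome, followed separate courses. seh1l.L had 892 and 904 units at stage 5, against 1622 and 1608 at stage 2, a change of -0.85 ± 0.13 (SE, adjusted p 4.93e-05) before the stage at which most zygotic transcription begins. It went on falling to 35.5 and 31.7 units at stage 48, at least 8.81-fold under stage 2. It was among the 5 Y complex falls at stage 48 over stage 31, but both those stages lay under the array median (111 and 129 units at stage 31). seh1l.S had 211 and 296 units at stage 48, against 554 and 531 at stage 2, and both values of stage 48 lay above the stage's array median of 183 units. In the tailbud interval it had 353 and 285 units at stage 31, against 539 and 532 at stage 21 (-0.76, adjusted p 0.00385). That call was lost under poly-A scaling (-0.16, adjusted p 0.623) and without replicate 2 of stage 31 (-0.60, adjusted p 0.0549). The L minus S difference changed by -4.47 ± 0.24 (SE, adjusted p 2.1e-11) at stage 48 over stage 2. The size of that change is uncertain, since seh1l.L lay under the array median at stage 48.

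In the inner ring, nup35.L, a membrane-binding adaptor of the ring, had 222 and 243 units at stage 48, against 8196 and 8606 at stage 2. This is a 36.1-fold fall (log2 change -5.18 ± 0.07, SE, adjusted p 2.97e-22; -3.57 under poly-A scaling). Its stage means fell at nearly every step: 8398 units at stage 2, 6382 at stage 5, 5026 at stage 9, 4220 at stage 11, 2198 at stage 21, 1387 at stage 31, 762 at stage 43 and 232 at stage 48. Under poly-A scaling it was not called at stage 5 over 2 (-0.28), at stage 21 over 11 (-0.14) or at stage 31 over 21 (-0.06). nup35.S had 669 and 705 units at stage 48, against 6569 and 6921 at stage 2, a 9.82-fold fall. At stage 48 over stage 31 the L minus S difference changed by -1.70 ± 0.08 (SE, adjusted p 2.09e-11).

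The large scaffold subunits of the same ring had their highest stages later than stage 2. nup93.L, which links the ring to the channel, had 2370 and 2456 units at stage 21, against 1026 and 991 at stage 11 (log2 change 1.26 ± 0.06, SE, adjusted p 3.75e-13). nup205.S had its highest mean, 2794 units, at stage 19, against 962 at stage 2. nup155.L had its highest mean, 2115 units, at stage 13, against 1034 at stage 2. All 5 inner ring probe sets then fell at stage 48 over stage 31 (5 also under poly-A scaling), with a median of -2.11. nup93.L had 442 and 509 units at stage 48, against 2385 and 2235 at stage 31, a 4.87-fold fall. At stage 48 over stage 2 all 5 fell, but 2 fell and 2 rose under poly-A scaling.

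Central channel nucleoporins carry the repeats that form the barrier, and nup62, nup54 and nup58 make up 1 complex. Their courses did not run together. nup54.S had 827 and 874 units at stage 21, against 2720 and 2580 at stage 11, a 3.12-fold fall. nup62.L rose at stage 11 over stage 5 (0.32 ± 0.07, SE, adjusted p 0.000235; 0.02 and 0.895 under poly-A scaling) and had its highest mean of 2522 units at stage 17, against 1828 at stage 2. nup58.L fell during cleavage, with 1779 and 1848 units at stage 5, against 2370 and 2510 at stage 2 (-0.43 ± 0.07, SE, adjusted p 7.62e-05; -0.31 and 0.208 under poly-A scaling). In the last interval, stage 48 over stage 31, 4 of 5 channel probe sets fell (3 under poly-A scaling), and nup58.S changed by -0.50 with an adjusted p of 0.0942. Both its stages lay under the array median there. So did both stages of the dimmer nup58.L probe set, which is among the 4 (159 units at stage 31 and 49.8 at stage 48).

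On the cytoplasmic face, nup88 and nup214 form a docking complex, ranbp2 makes the filaments, aaas encodes aladin and nup42 serves mRNA export. nup88.L had 3265 and 3242 units at stage 5, against 2358 and 2543 at stage 2 (0.41 ± 0.07, SE, adjusted p 0.000161). It reached 3793 units at stage 11 and then had 1016 and 976 units at stage 21, a 3.81-fold fall from the gastrula. nup88.S ran the same way, with 1110 and 1113 units at stage 11, against 821 and 738 at stage 5, and then fell 3.45-fold to stage 21. The calls at stage 11 over stage 5 were lost under poly-A scaling, with 0.22 (adjusted p 0.234) for nup88.S and -0.07 (adjusted p 0.713) for nup88.L. At stage 48 the L copy had 304 and 252 units, against 1174 and 1190 at stage 31. aaas.L had 230 and 233 units at stage 48, against 441 and 557 at stage 31, a 2.14-fold fall. nup214.L had 383 and 364 units at stage 48, against 775 and 734 at stage 31. In all, 9 of 10 probe sets of this face fell in that interval (9 under poly-A scaling), and nup42.L changed by -0.13 with an adjusted p of 0.198. Among the 9 was a dim ranbp2.L probe set with both stages under the array median (42.0 units at stage 31 and 6.24 at stage 48). At stage 48 over stage 2 10 of 10 fell, against 5 falling and 1 rising under poly-A scaling. The brightest ranbp2.L probe set had a change of -0.66 at stage 11 over stage 5, while a second, dim one changed by 1.75 with both stages under the array median.

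The nuclear basket had 7 tested probe sets, 4 of them for nup153.L, which anchors the basket and takes part in pore assembly. Over the tadpole interval, stage 48 over stage 31, 7 of 7 fell (5 under poly-A scaling), and 7 of 7 fell at stage 48 over stage 2 (5 fell and 1 rose under poly-A scaling). nup153.L had 373 and 348 units at stage 48, against 5851 and 5649 at stage 2, a 16.0-fold fall (log2 change -4.00 ± 0.06, SE, adjusted p 1.8e-21). The other 3 nup153.L probe sets fell by 3.41, 3.96 and 3.47 on the log2 scale over this span. tpr.S, the filament protein of the basket, had 357 and 306 units at stage 48, against 2510 and 2636 at stage 2, a 7.78-fold fall. nup50.S, a basket protein that helps release imported cargo, had 1884 and 1801 units at stage 48, against 4658 and 4786 at stage 2. Its change of -1.36 became 0.25 under poly-A scaling and was not called there (adjusted p 0.0739).

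Among the membrane-anchored pore proteins, ndc1.S fell around the gastrula. It had 467 and 416 units at stage 11, against 2554 and 2636 at stage 5 (log2 change -2.56 ± 0.12, SE, adjusted p 9.48e-14). Its second probe set fell by 2.46 on the log2 scale in the same interval, so both reported a fall of more than 5-fold (5.89-fold and 5.49-fold). Both then rose at stage 21 over stage 11, by 1.00 and 1.23. At stage 48 the first had 175 and 185 units, against 948 and 786 at stage 31. nup210.L, a glycoprotein of the pore membrane, had 140 and 99.5 units at stage 21, against 274 and 283 at stage 11, at least 1.94-fold lower (-0.44 and not called under poly-A scaling, adjusted p 0.0771), and its mean stayed under the array median at the later stages sampled. Between the tadpole and the tailbud embryo, at stage 48 over stage 31, 3 of 4 probe sets of this group fell (2 fell and 1 rose under poly-A scaling).

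Importin alpha proteins recognise the classical import signal and hand cargo to importin beta. All 6 tested probe sets fell at stage 48 over stage 31 (6 under poly-A scaling; median -1.25), and all 6 at stage 48 over stage 2, where 2 fell and 2 rose under poly-A scaling. kpna2.L had 2619 and 2790 units at stage 11, against 4991 and 5254 at stage 5. kpna2.S had 1893 and 1987 units at stage 11, against 5743 and 5794 at stage 5 (log2 change -1.57 ± 0.08, SE, adjusted p 2.31e-13). The S copy thus lost more than the L copy in that interval, with an L minus S change of 0.65 ± 0.07 (SE, adjusted p 6.12e-07). Stage means of the copies then lay between 1940 and 3829 units from stage 11 to stage 43. kpna2.L had 702 and 919 units at stage 48, against 2873 and 2990 at stage 43, and kpna2.S had 998 and 1206 units, against 3644 and 3579. kpna6.S had 554 and 494 units at stage 48, against 1144 and 1230 at stage 31. kpna3.L had probe sets called in opposite directions at stage 5 over stage 2, by -0.39 for the brightest (-0.27 under poly-A scaling, adjusted p 0.189) and 0.34 for the other. kpna4.S had 1470 and 1400 units at stage 48, against 3678 and 3828 at stage 2. Its change of -1.39 became 0.22 under poly-A scaling and was not called there (adjusted p 0.163).

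The importin beta family had calls in both directions. In the last interval, stage 48 over stage 31, 15 of 15 tested probe sets fell (9 under poly-A scaling), with a median of -1.06. Both stages lay under the array median for tnpo2.L (77.9 units at stage 31 and 17.3 at stage 48) and kpnb1.S (92.2 and 57.9), so these falls are of uncertain size. Across the series, at stage 48 over stage 2, 9 fell, 3 rose and 3 did not pass, and under poly-A scaling 6 fell and 8 rose. At stage 21 over stage 11, 8 of the 15 rose and 3 fell (39.7% and 39.9% of all tested probe sets). Under poly-A scaling 11 rose and 1 fell (57.2% and 17% of all). ipo5.L, which imports ribosomal proteins and histones, had 810 and 800 units at stage 48, against 237 and 214 at stage 2 (log2 change 1.84 ± 0.07, SE, adjusted p 9.22e-16). Its stage means were 225 units at stage 2, 343 at stage 11, 1053 at stage 21, 1309 at stage 31 and 805 at stage 48, so it was highest in the tailbud embryo. The change at stage 48 over stage 31 was -0.70, and under poly-A scaling -0.32 with an adjusted p of 0.0801. ipo5.S had 1472 and 1739 units at stage 48, against 1009 and 992 at stage 2. Its change of 0.68 was -0.10 and not called (adjusted p 0.347) with each array centred on its median. The brighter probe set of ipo7.S, another importer of ribosomal proteins, had a lowest mean of 2782 units at stage 13 and a highest of 5282 at stage 31. The dimmer ipo7.S probe set had a lowest mean of 973 units at stage 11 and a highest of 2218 at stage 28.

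Transportins carry RNA-binding proteins into the nucleus. tnpo1.S dipped at the gastrula: it had 96.4 and 113 units at stage 11, against 349 and 387 at stage 5, at least 3.06-fold lower. It then had 629 and 643 units at stage 21, at least 5.31-fold over stage 11 (log2 change 2.61 ± 0.08, SE, adjusted p 2.92e-16). tnpo1.L had 508 and 435 units at stage 11, against 978 and 1028 at stage 5. tnpo1.S had 442 and 472 units at stage 48, against 462 and 470 at stage 2, and was not called, but it was called at 1.58 under poly-A scaling and at -0.80 with median centring. tnpo1.L had 91.1 and 71.3 units at stage 48, against 993 and 999 at stage 2, at least 5.43-fold lower. The L minus S change over that span was -3.60 ± 0.19 (SE, adjusted p 1.14e-11), of uncertain size, since tnpo1.L lay under the array median at stage 48. tnpo2.S had 783 and 842 units at stage 31, against 1286 and 1245 at stage 21 (-0.64, adjusted p 2.35e-08), a call that was lost under poly-A scaling (-0.04, adjusted p 0.836). It had 436 and 413 units at stage 48. tnpo2.L had 19.1 and 15.6 units at stage 48, against 203 and 217 at stage 2, at least 1.15-fold lower. tnpo3.S, which imports splicing factors, was highest at stage 13 with 3807 units, against 1962 at stage 2. ipo9.L, an importer of histones, had its highest mean of 975 units at stage 5 and its lowest of 212 at stage 17. It had 512 and 522 units at stage 31, against 259 and 260 at stage 21, and its mean was 215 at stage 48. The kpnb1.S probe set, for importin beta itself, was above the array median in both arrays of only 1 stage, so its course was poorly measured.

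Exportins had 8 tested probe sets, of which 7 fell at stage 48 over stage 31 (6 fell and 1 rose under poly-A scaling). Over the whole span, stage 48 over stage 2, 5 fell and 2 rose, and under poly-A scaling 3 fell and 3 rose. xpo1.S, the receptor for leucine-rich export signals, had its highest mean of 4146 units at stage 11 and its lowest of 967 at stage 48. xpo6, which exports actin bound to profilin, fell in both copies, at different times. xpo6.S had 503 and 519 units at stage 11, against 2399 and 2515 at stage 5 (log2 change -2.26 ± 0.15, SE, adjusted p 2.12e-11). xpo6.L had 2311 and 2305 units at stage 11, against 2809 and 2757 at stage 5, and its fall came after the gastrula, with 293 and 269 units at stage 21, an 8.22-fold fall. xpo6.S was lowest at stage 17 with 48.9 and 39.7 units, rose again to 220 and 212 units at stage 31, at least 1.51-fold over stage 21, and had 231 and 234 units at stage 48, while xpo6.L had 210 and 194.

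The xpo7 probe sets, for an exportin with a broad cargo range, rose early. One xpo7.L probe set had 425 and 398 units at stage 11, against 228 and 165 at stage 5 (1.09 ± 0.11, SE, adjusted p 2.87e-08). The brighter xpo7.L probe set, whose design allows it to match several transcripts, had 918 and 887 units at stage 11, against 512 and 480 at stage 5. Both were also called higher at stage 48 over stage 2, by 0.37 and 0.31. With median centring these became -0.41 and -0.46, and without replicate 2 of stage 48 they were 0.25 and 0.14 and not called (adjusted p 0.0814 and 0.111). The first was -0.07 with quantile normalization, and the second was not called with the stages compared alone (adjusted p 0.0734). xpo4.L, an exporter of a translation factor, had 940 and 847 units at stage 11, against 2112 and 2132 at stage 5, a 2.38-fold fall.

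The genes of the Ran cycle peaked at different stages. ran itself rose to 9485 and 9632 units at stage 11, against 4676 and 4428 at stage 5 (log2 change 1.07 ± 0.04, SE, adjusted p 7.66e-16; 0.78 under poly-A scaling). It was highest at stage 13 with 12023 and 11881 units, and had 3626 and 3778 units at stage 48, against 7474 and 7561 at stage 31. The ran probe set may match several transcripts. rcc1.L, which encodes the chromatin-bound exchange factor, peaked at stage 11 with 5658 and 5920 units. Its mean was then lower at each later stage sampled, with 2225 units at stage 21, 1389 at stage 31, 756 at stage 43 and 221 at stage 48. Its arrays had 228 and 213 units at stage 48, against 1405 and 1374 at stage 31, a 6.30-fold fall (-2.65 ± 0.06, SE, adjusted p 3.68e-18). rcc1.S had stage means of 4065 to 4787 units up to stage 11. It then had 1666 and 1704 units at stage 13, against 4806 and 4768 at stage 11. It had 134 and 117 units at stage 48, at least 22.2-fold under stage 2. Its probe sets may share probes with other transcripts.

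rangap1.S, which encodes the activator of GTP hydrolysis, rose at the same step. It had 1379 and 1185 units at stage 13, against 240 and 222 at stage 11. An earlier rise came during cleavage, with 262 and 256 units at stage 5, against 135 and 130 at stage 2. That log2 change was 0.97 ± 0.12 (SE, adjusted p 3.18e-06), and 1.08 under poly-A scaling. By stage 21 rangap1.S had 1939 and 1784 units, an 8.04-fold rise over stage 11 (log2 change 3.01 ± 0.12, SE, adjusted p 6.36e-15). It stayed high to stage 31 and had 257 and 207 units at stage 48, against 1780 and 1884 at stage 31, a 7.95-fold fall. A second, dim rangap1.S probe set changed by -0.97 at stage 48 over stage 2, where the bright one changed by 0.80. Under poly-A scaling both were called higher, by 0.64 for the dim one (adjusted p 0.00868) and 2.40 for the bright one (adjusted p 5.28e-13). The bright one changed by 0.19 with quantile normalization (adjusted p 0.129) and by 0.02 with median centring (adjusted p 0.864). rangap1.L was flatter, between 571 units at stage 48 and 1922 at stage 31. ranbp1.S, a cofactor of RanGAP1, rose at each sampled stage up to 13, with 1365 and 1245 units at stage 5, against 865 and 932 at stage 2, and with 4613 and 5101 at stage 13. At stage 48 it had 610 and 626 units, against 3518 and 3741 at stage 31. ranbp1.L was already at 5091 units at stage 2. In all, 11 of 13 Ran cycle probe sets fell at stage 48 over stage 31 and 1 rose (10 fell and 2 rose under poly-A scaling), with a median of -2.04. From end to end, at stage 48 over stage 2, 12 fell and 1 rose, which under poly-A scaling became 3 falls and 7 rises.

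**Figure D3:**
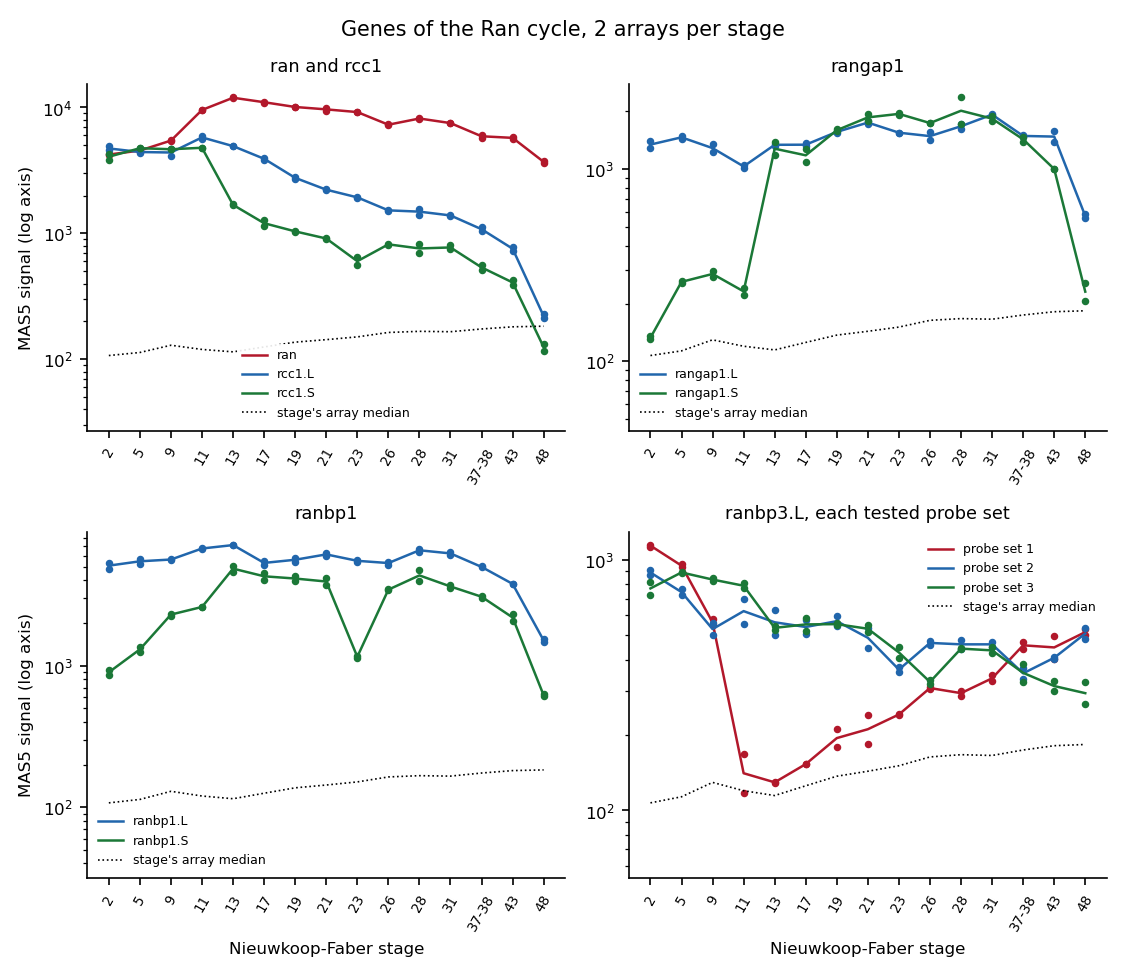
MAS5 signal (log axis) of Ran cycle genes at 15 stages; points are single arrays, lines join the geometric means of 2 arrays, and the dotted line is the median signal of the stage's arrays. rcc1.S drops from stage 13 on, where rangap1.S rises, and the 3 tested ranbp3.L probe sets part at stage 11.

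ranbp3.L, a cofactor of export by xpo1, had 3 tested probe sets that parted. Probe set 1 in the plot of Ran cycle genes had 168 and 118 units at stage 11, against 961 and 934 at stage 5 (-2.75 ± 0.14, SE, adjusted p 3.97e-13), while the other tested ones had stage means of 788 and 624 units at stage 11, against 890 and 743 at stage 5. That probe set was called in the opposite direction to the brightest one in each of the 3 later intervals, with 0.61 against -0.57 at stage 48 over stage 31. Under poly-A scaling the brightest one was not called in any of these intervals (-0.19 in the last, adjusted p 0.364). Probe set 1 was 1 of the 2 members called higher at stage 48 over stage 31, and it gives no settled direction for the gene.

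The lamin probe sets were highest at different stages. lmnb1.L had stage means of 6079 units at stage 2, 7166 at stage 13, 4540 at stage 31 and 1022 at stage 48. lmnb1.S had 524 and 400 units at stage 48, against 1930 and 2108 at stage 31, a 4.40-fold fall (-2.14 ± 0.14, SE, adjusted p 9.91e-11). lmnb2.L was highest at stage 11, with 729 and 645 units, and had 42.4 and 37.6 units at stage 21, at least 4.78-fold lower (-4.10 ± 0.61, SE, adjusted p 3.78e-06). It lay under the array median at every sampled stage from 19 on, where its lowest values are not ordered. lbr.S, the lamin B receptor of the inner membrane, was dim: it exceeded the array median in both arrays of 3 stages, with a highest mean of 179 units at stage 9.

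The lmnb2.S probe sets disagreed. One had 370 and 378 units at stage 21, against 1502 and 1539 at stage 11, a change of -2.02 ± 0.41 (SE, adjusted p 0.000201). The other had 560 and 663 units at stage 21, against 158 and 136 at stage 11, a change of 2.05 ± 0.44 (SE, adjusted p 0.000368). Both fell at stage 48 over stage 31, by 2.79 and 2.44 on the log2 scale. Of 7 probe sets for lamins and the lamin B receptor, 6 fell in that interval (5 under poly-A scaling), with a median of -2.15, and lbr.S changed by -0.15 with an adjusted p of 0.671. Among the 6, lmnb2.L had both stages under the array median. Its call (-1.80, adjusted p 0.0127) was lost with the stages compared alone (adjusted p 0.0729) and under poly-A scaling (-1.42, adjusted p 0.0577). That call was also lost at an adjusted p of 0.01 and without replicate 1 of stage 48, where the change was -1.13. Over the whole span, stage 48 over stage 2, 5 of 7 fell, and under poly-A scaling 4 fell and 2 rose.

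**Figure D4:**
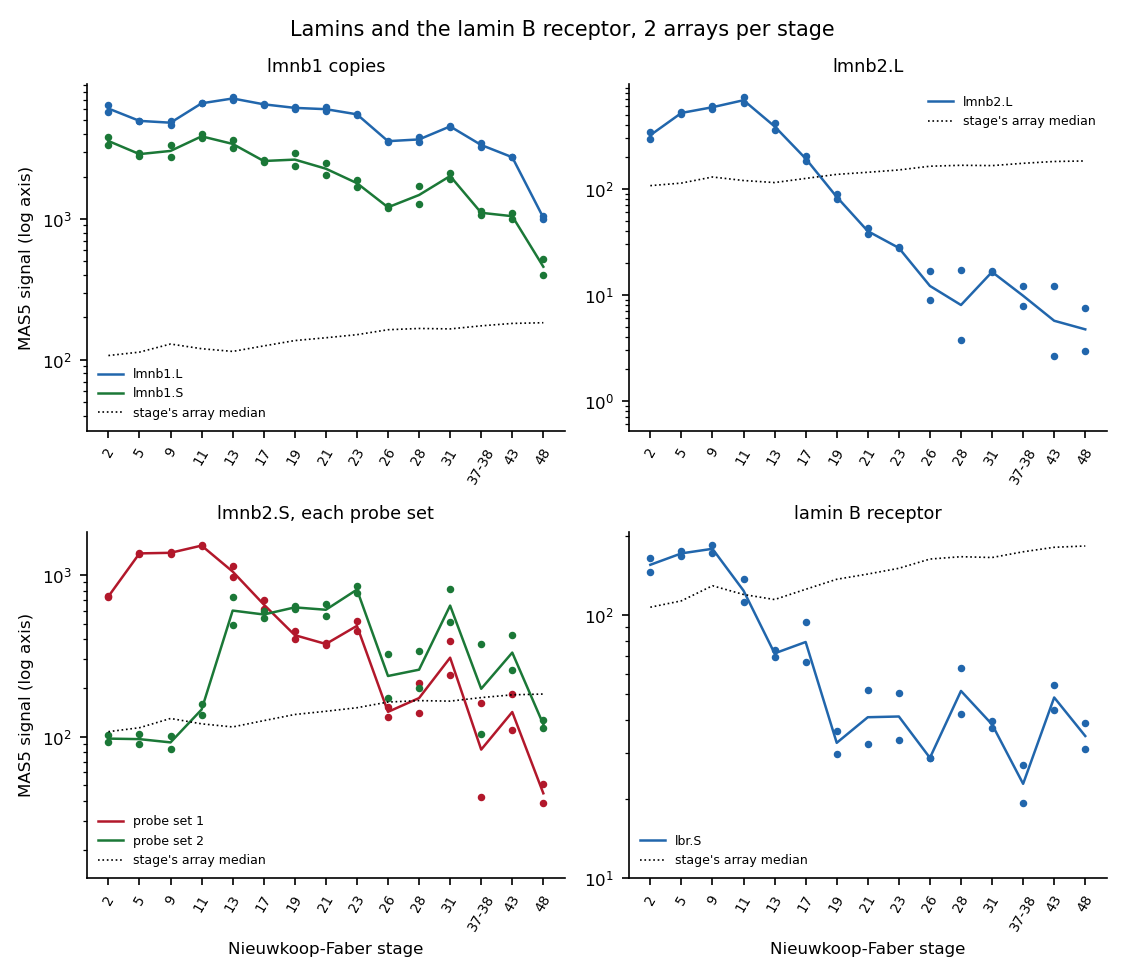
MAS5 signal (log axis) of lamin genes and the lamin B receptor at 15 stages; points are single arrays, lines join the geometric means of 2 arrays, and the dotted line is the median signal of the stage's arrays. The lmnb2.S probe sets cross between stages 11 and 21, and lmnb2.L and lbr.S lie under the dotted line at late stages.

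Members outside these roles were nup98l.S, which has a nup98-like name, and ranbp9.S, whose mammalian counterpart is a subunit of a ubiquitin ligase. nup98l.S had 301 and 361 units at stage 48, against 4051 and 4238 at stage 2, a 12.6-fold fall. ranbp9.S had 1073 and 1041 units at stage 48, against 663 and 559 at stage 31 (0.80 ± 0.09, SE, adjusted p 1.16e-07). It was the other member called higher in that interval. It had reached its lowest mean, 344 units, at stage 13.

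L and S copies could be compared in 18 genes, by the change of the difference between their log2 signals within each array. The change of that difference was called in 7 of 18 pairs at stage 5 over stage 2, where 31.6% of all 1722 pairs on the array were called. It was called in 10 of 18 at stage 11 over stage 5 (58.8% of all), in 13 of 18 at stage 21 over stage 11 (67.2%) and in 4 of 18 at stage 31 over stage 21 (33.4%). At stage 48 over stage 31 it was called in 12 of 18 (51.5%), and at stage 48 over stage 2 in 15 of 18 (75.8%). These shares were near those of all pairs. Besides seh1l and tnpo1, over the whole span it was -1.88 ± 0.08 (SE, adjusted p 5.49e-13) in nup35 and -2.03 ± 0.12 (SE, adjusted p 3.98e-11) in rangap1. In rangap1 it was already -2.25 ± 0.12 (SE, adjusted p 2.31e-11) at stage 21 over stage 11. Probes for L and S copies can bind each other's RNA, and how far they do was not tested.

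**Figure D5:**
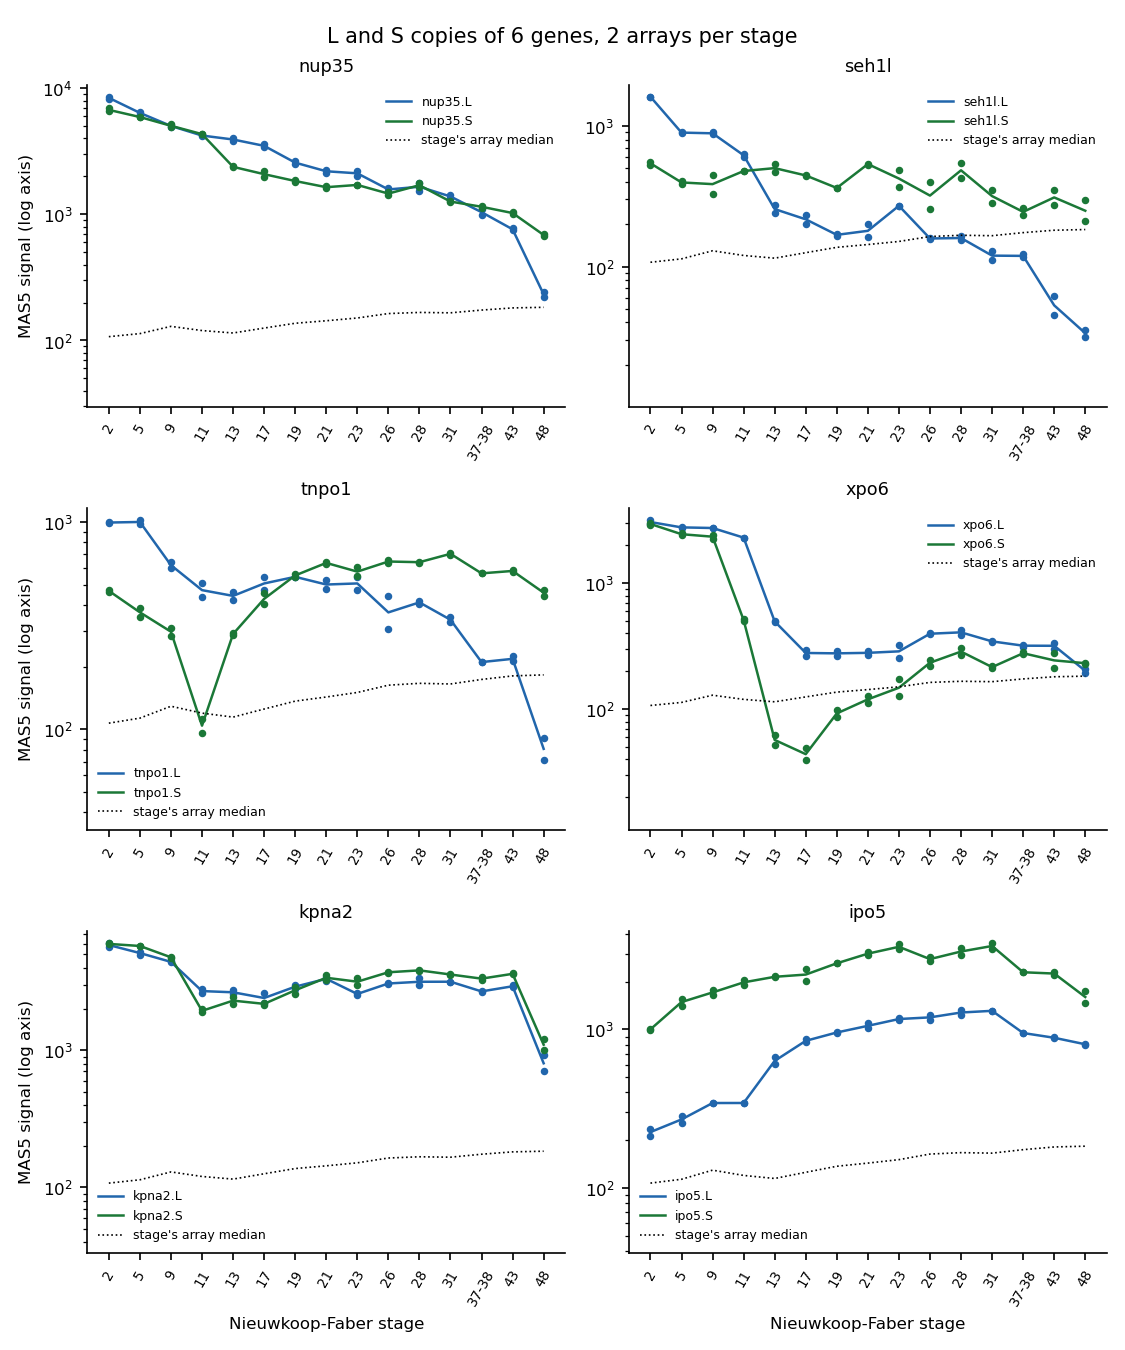
MAS5 signal (log axis) of the L copy (blue) and the S copy (green) of 6 genes at 15 stages; points are single arrays, lines join the geometric means of 2 arrays, and the dotted line is the median signal of the stage's arrays. xpo6.S falls at stage 11 and xpo6.L by stage 13, and tnpo1.S dips at stage 11, while tnpo1.L lies under the dotted line at stage 48.

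Other genes that work at the pore, in mRNA export or in the nuclear envelope were taken from a list of 41 genes, 27 of which had a named probe set. Of their 45 tested probe sets, 35 fell and 6 rose at stage 48 over stage 31 (39.7% and 29.7% of all tested probe sets). Under poly-A scaling 26 fell and 7 rose (23.8% and 37.8% of all). At stage 48 over stage 2, 33 fell and 11 rose (45.7% and 44.7% of all), or 19 and 16 under poly-A scaling (17.3% and 68.1% of all). Of the genes named here, emd.S, syne1.L, chmp7.L and lemd3.S were chosen after their values were seen. emd.S, for emerin, which binds lamins, had 1006 and 1040 units at stage 48, against 362 and 342 at stage 31 (1.54 ± 0.10, SE, adjusted p 1.27e-11). emd.L had 492 and 460 units at stage 48, against 11.5 and 9.61 at stage 2, at least 4.44-fold higher. syne1.L, a giant protein of the outer membrane that muscle expresses highly, had 982 and 919 units at stage 48, against 412 and 423 at stage 31. chmp7.L, which helps reseal the nuclear envelope after mitosis, had 865 and 727 units at stage 48, against 267 and 233 at stage 31. lemd3.S, an inner membrane protein, went the other way, with 559 and 537 units at stage 48, against 1150 and 1117 at stage 31. sun2.L, a partner of syne1 in the inner membrane, had 348 and 349 units at stage 48, against 7.18 and 22.6 at stage 2, at least 3.25-fold higher. One probe set of tmpo.L, for lamina-associated polypeptide 2, had 267 and 464 units at stage 48, against 5.63 and 4.04 at stage 2, at least 3.28-fold higher, but changed by -0.28 at stage 48 over stage 31 with an adjusted p of 0.78. The brightest tmpo.L probe set ran the other way at the end, with 280 and 317 units at stage 48, against 934 and 1052 at stage 31.

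The oocyte-type genes that the rule left out gave low late levels too. kpna7.L had 7.63 and 6.53 units at stage 48, against 794 and 631 at stage 2, at least 3.86-fold lower. The brighter lmnb3.L probe set had 31.1 and 36.5 units at stage 48, against 317 and 299 at stage 2, at least 1.68-fold lower.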

How the data were processed

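MAS5 software gave the deposited signal intensities, on a linear scale, according to the submitters' processing notes, which leave its version unnamed as read here. On every array the 2% trimmed mean was 500 units. Signals were taken to log2 with no other normalization. Of 32635 probe sets, 96 controls were dropped, and 23403 were tested because some stage had both arrays over the median of the array. Symbols came from GEO's platform annotation, and 101 of 102 members were found by Entrez identifier in RefSeq's Xenopus_laevis_v10.1 table, used for names. The test was limma 3.58.1 in R 4.3.3, with 1 mean per stage over 30 arrays, 15 residual degrees of freedom, trend and robust moderation, and Benjamini-Hochberg adjustment over all tested probe sets at 0.05. The L minus S fit covered 1722 pairs. For each symbol the probe set with the highest mean was used. Values are given for the 3 members per role with the widest range, for many but not all of the 5 largest rises and falls per interval, and for further members after their values were seen. Members, lists and tests were chosen with earlier results of these data known. The fit was tested on simulated data. Replicates are biological per the labels. Arrays of the same number had deviations from their stage means that correlated at -0.059 to 0.041 between stages. This shows no strong effect shared by a number, but cannot tell whether the numbers paired samples. Plots used matplotlib 3.10.9 and Python 3.11.15. Alternatives covered scaling, filters, thresholds, weights, the replicate block and single arrays left out.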

Additional observations from a re-analysis of the deposited data

How the results depend on the processing

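With 2 arrays per stage, single stages weigh heavily. Leaving out 1 array at a time left 89 to 89 members changed over the course. For stage 5 over 2 it gave 13 to 19 higher and 8 to 18 lower (8 without stage 2 replicate 2). It gave 23 to 26 higher and 31 to 37 lower for stage 11 over 5, 22 to 25 and 42 to 50 for stage 21 over 11, 13 to 18 and 22 to 30 for stage 31 over 21, 2 to 3 and 78 to 80 for stage 48 over 31, and 4 to 7 (4 without stage 48 replicate 2) and 77 to 77 for stage 48 over 2. L minus S calls ranged over 3 to 7 (3 without stage 5 replicate 2), 8 to 11, 10 to 13, 2 to 4 (2 without stage 31 replicate 1), 10 to 12 and 11 to 15 in the same order. Scaling to poly-A controls gave 8 higher and 1 lower for stage 5 over 2, 5 higher for stage 11 over 5, 46 higher and 18 lower for stage 21 over 11, 52 higher and 0 lower for stage 31 over 21, 5 higher for stage 48 over 31, and 28 higher and 41 lower for stage 48 over 2. Median centring gave 11 higher for stage 5 over 2, 6 higher and 47 lower for stage 31 over 21, and 1 higher for stage 48 over 2. At least 2-fold changes were 1 higher and 0 lower, 3 and 10, 8 and 22, and 0 and 1 in the first 4 intervals, 0 higher for stage 48 over 31 and 1 higher for stage 48 over 2. For stage 5 over 2, lower members were 10 with array weights, 26 with the 2 stages alone and 8 at an adjusted p of 0.01. For stage 48 over 31, higher members were 4 with no filter and 1 with 1 probe set per symbol. With the replicate block, 29 members fell at stage 31 over 21 and 6 L minus S pairs were called at stage 5 over 2, and other counts were the same. Of 7172 alternative values of 180 named changes, 7053 kept their call, 99 lost it, 9 gained it and 11 turned direction, all for stage 48 over 2. Many of these alternatives could not move the estimate. Leaving out an array of another stage alters only its spread, and poly-A scaling and median centring cancel in L minus S. The number of kept calls therefore does not measure how firm the changes are. A turn is a change of sign, whether or not the value was called. Turned by poly-A scaling were kpna4.S (0.22), tnpo1.S (1.58), nup155.L (0.17), nup50.S (0.25) and ranbp9.S (1.16). After the turn kpna4.S, nup155.L and nup50.S were not called, and tnpo1.S had not been called before it. Turned by median centring were ipo5.S (-0.10, not called) and xpo7.L (-0.41 and -0.46, both called), and by quantile normalization xpo7.L (-0.0707, not called). The L minus S change turned for ipo7 with quantile normalization (0.23, called) and for lmnb2 with 50 units added to the signal (0.30, not called). The cause of these differences was not tested.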

Other observations

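Some values at single stages were chosen after they were seen. ranbp1.S had 1170 and 1140 units at stage 23, between 4177 and 3702 at stage 21 and 3432 and 3457 at stage 26, while ranbp1.L averaged 5507 units at stage 23. nup88.S had 679 and 627 units at stage 26, against 404 and 385 at stage 23, and nup88.L had 1005 and 1056 units at stage 26, against 1030 and 1064 at stage 23. A dim lmnb1.S probe set had 14.0 and 5.14 units at stage 23, against 190 and 165 at stage 21. At stage 37-38, 1 lmnb2.S probe set had 42.6 and 162 units and the other had 104 and 376.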
